A study of Tupaia belangeri with 15 samples.

Results

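Müller glia and astrocytes are the large supporting cells of the retina, and 9 genes known for their filaments, water flow, glutamine synthesis and acid balance were followed here in the tree shrew (TS): GFAP, VIM, NES, S100B, AQP4, GLUL, CA2, CA14 and DKK3. The genes were taken by name from the 83605 features of the deposited matrices. Of the 9 genes, 8 were listed under their own symbol, 7 had any unique molecular identifiers (UMIs, each standing for 1 captured RNA molecule), and 6 had enough for a test between cell classes. CA2 was not listed under its name or as a numbered copy, S100B was listed with 0 UMIs, and NES had 21 UMIs in 8 of the 15 retinas. Over the series, DKK3 had 112127 UMIs, VIM 36275, GLUL 13207, AQP4 9458, CA14 2391 and GFAP 1033.

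The data were single-nucleus RNA-seq (snRNA-seq) libraries of frozen whole retinas of Tupaia belangeri, 1 library for each of 15 animals without a stated treatment or genetic change. They formed 3 stages of 5 animals: Infancy, at 1.4 to 2.1 months of age, Mature, between 24.96 and 36 months, and Senile, whose youngest and oldest animals were 85.8 and 86.56 months old. By the study's methods the senile animals came from another institute than the others, so age and origin cannot be told apart, and the labels give no sex. The libraries held 13429873 to 58734300 UMIs each, and 119765 of 120437 barcodes passed the study's limits on genes and mitochondrial UMIs.

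In the mature mammalian retina, Müller glia span the whole thickness of the tissue, take up glutamate and turn it into glutamine with the enzyme that GLUL encodes, and let water and ions pass through channels such as aquaporin 4 (AQP4). Astrocytes lie in the nerve fibre layer and are the cells in which the filament protein GFAP is normally abundant, while Müller glia carry vimentin (VIM) and make more GFAP when the retina is stressed. GFAP, vimentin and nestin (NES) are intermediate filament proteins, S100B is a calcium-binding protein, CA2 and CA14 are carbonic anhydrases that convert carbon dioxide and bicarbonate, and DKK3 is a secreted protein of the Dickkopf family.

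Nuclei were sorted into 9 retinal classes by sets of marker genes that held none of the 9 genes described. The gates kept 6742 Müller glia (230 to 695 per retina), 1322 astrocytes (24 to 193), 525 microglia and 48349 neurons, which were cones, rods, bipolar cells (BCs), horizontal cells (HCs), amacrine cells (ACs) and retinal ganglion cells (RGCs). In all, 56938 of 119765 nuclei were gated. The remaining nuclei were left ungated, since they showed too few markers or those of several classes. Levels are given as CPM, a gene's UMIs divided by all UMIs of a retina's nuclei in a class and scaled to 1000000, so that each retina gives 1 value. Because nuclei were sequenced, levels stand for RNA in the nucleus, and a gene's level cannot be set against another gene's.

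Some features of the libraries touch these genes. The matrices came from 2 versions of the counting software Cell Ranger, 6.1.2 in 7 libraries (Infancy 1 to 3, Mature 1 and 2, Senile 1 and 2) and 7.0.1 in the other 8, and the same split divides the labels' RNA type (polyA or total RNA). Median UMIs per Müller nucleus were 816 to 1551 in the first set and 1605 to 5388 in the second. In Mature 4, the astrocyte gate held 193 nuclei that went against its name, since 5 of the 6 gate markers lay below their range in the other retinas. PAX2 and SLC14A1 were at 23.1 and 188 CPM there against 362 to 821 and 1993 to 5669 CPM in the other retinas. The same nuclei held IDO1 at 814 CPM, which was at 0 in the astrocyte gates of the others. The class comparisons were therefore also fitted without Mature 4, and its Müller gate markers lay within the range of the other retinas except for KDR (340.0 CPM against 371 to 1050).

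GFAP marked the astrocytes, GLUL, CA14 and DKK3 were higher in Müller glia than in astrocytes, and VIM and AQP4 did not pass the test between the glial classes. All 6 genes were higher in both glial classes than in neurons. In edgeR's quasi-likelihood test on UMIs summed per retina and class, with the retina as a block and Benjamini-Hochberg adjustment over 11180 features, Müller glia against astrocytes called 3 of the 6 genes higher and 1 lower, where 36.9% of all features were called. Against neurons, 6 of 6 were higher in Müller glia, where 69.9% of all features were called, 31.5% higher and 38.4% lower. In astrocytes 6 of 6 were higher than in neurons as well, where 59.9% of all features were called, 25.3% higher and 34.6% lower. The 2 comparisons with neurons share the same neuron sums. Without Mature 4 the members were called as with it, and the differences of astrocytes from neurons were 7.56 for GFAP, 2.74 for VIM, 6.04 for AQP4, 3.51 for GLUL, 3.53 for CA14 and 1.55 for DKK3 on the log2 scale.

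**Figure D1:**
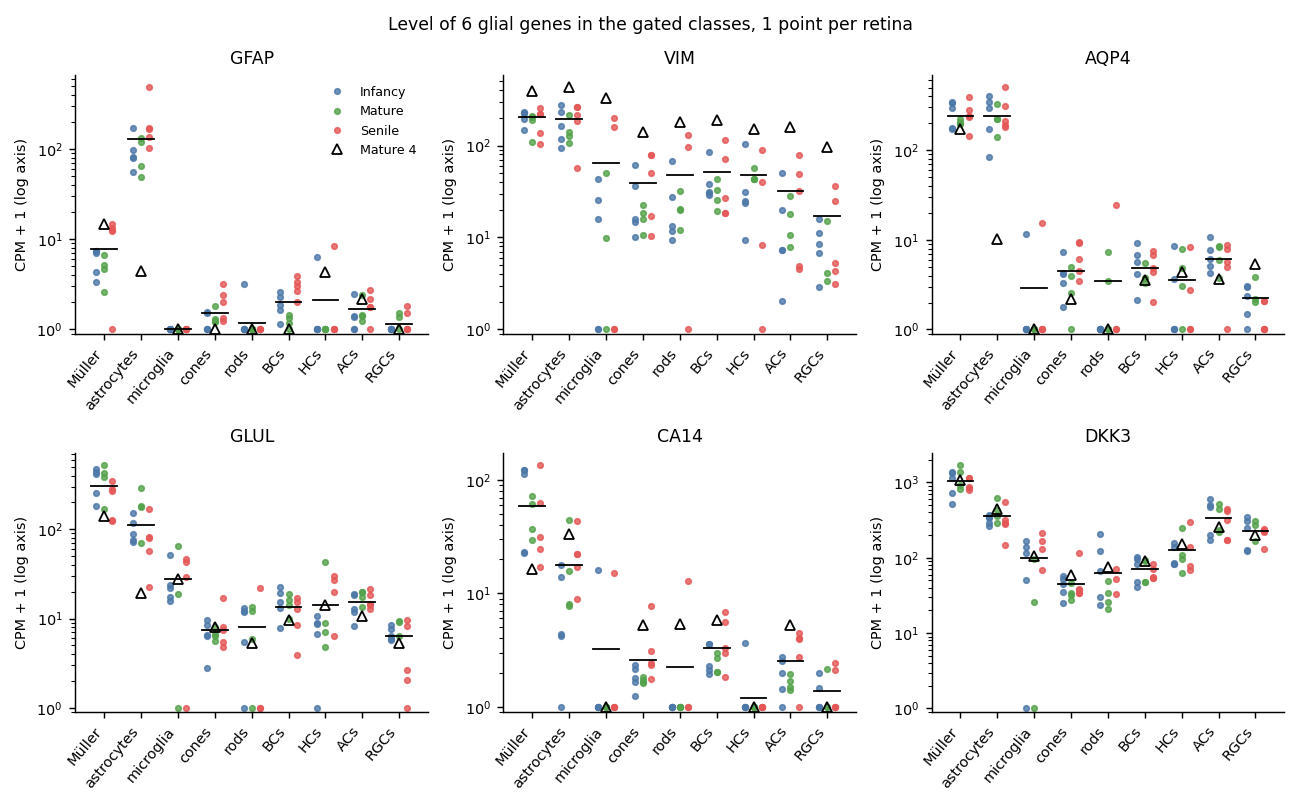
Level of 6 genes in 9 retinal classes, in CPM + 1 on a log axis, with 1 point per retina and class, a black line at the mean and a triangle for Mature 4. The mean of GFAP was highest in astrocytes and those of GLUL, CA14 and DKK3 in Müller glia. The ranges of Müller glia and astrocytes overlapped for all 6 genes, for GFAP only through Mature 4. Among neurons DKK3 was highest in ACs and RGCs.

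Among the filament genes, GFAP had the widest difference between the glial classes of the 6 tested genes. In astrocytes it stood at 78.1, 80.0, 169, 96.0 and 54.5 CPM in Infancy 1 to 5, at 47.7, 117, 129.6, 3.47 and 63.7 CPM in Mature 1 to 5, and at 166, 489, 135, 102 and 168 CPM in Senile 1 to 5. Mature 4, whose gate went against its name, was the lowest of the 15, and Senile 2 was the highest, from 23 UMIs. In Müller glia GFAP was at 6.34, 3.37, 6.33, 5.95 and 2.37 CPM in the infant retinas, at 5.63, 1.57, 4.14, 13.7 and 3.73 CPM in the mature retinas, and at 11.5, 0, 11.3, 12.2 and 13.7 CPM in the senile retinas. These levels rested on 0 to 34 UMIs per retina, and the 0 in Senile 2, from 207711 UMIs, allows up to 14.4 CPM.

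GFAP was 6.78 ± 4.55 CPM in Müller glia and 127 ± 111 CPM in astrocytes (SD, n = 15 each), a log2 difference of -3.68 ± 0.32 (SE, adjusted p = 3.6e-12). Astrocytes were the higher class in 14 of 15 retinas, and the exception was Mature 4. Without that retina the mean in astrocytes was 135 ± 109.8 CPM and the log2 difference was -4.17. Both classes were above neurons, at 0.626 ± 0.460 CPM, by 3.66 ± 0.38 on the log2 scale in Müller glia (adjusted p = 7.7e-11) and by 7.34 ± 0.33 in astrocytes (adjusted p = 7.9e-21). Every astrocyte value was above every neuron value, whereas Müller glia and neurons overlapped. In microglia, 0 of 502 nuclei held a GFAP UMI, which allows up to 0.598% of nuclei with a UMI and does not limit the nuclei that express it.

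The share of nuclei with a GFAP UMI showed the same order when each nucleus was thinned to 1000 UMIs. It was 9.26% of astrocytes (9.93% without Mature 4), 0.662% of Müller glia and 0.0770% of neurons, and 19.5%, 1.63% and 0.246% before thinning. Of all GFAP UMIs in the retinas, 34.2% lay in gated astrocytes and 14.6% in gated Müller glia, although astrocytes were 0.537% to 2.03% of the nuclei of a retina (1.62% at most without Mature 4). Free RNA in the droplets can place UMIs in nuclei of any class, and its part in the low levels of Müller glia and neurons was not tested.

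VIM, the main filament gene of Müller glia in other mammals, did not pass the test between the glial classes, and its level in neurons varied more between libraries than that of the other 5 genes. It was 203 ± 69.3 CPM in Müller glia (lowest 104, median 209, highest 391) and 191 ± 95.7 CPM in astrocytes (lowest 55.3, median 182, highest 436). The highest value of both was that of Mature 4. Müller glia were the higher class in 8 of 15 retinas, and the log2 difference was 0.29 ± 0.21 (adjusted p = 0.317), with a 95% interval of the fold from 0.915 to 1.63, or 0.23 without Mature 4 (adjusted p = 0.436).

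VIM was above neurons by 2.84 ± 0.20 on the log2 scale in Müller glia (adjusted p = 1.0e-15) and by 2.55 ± 0.22 in astrocytes (adjusted p = 5.0e-13). In neurons it was 9.23 to 15.2 CPM in the 7 libraries of Cell Ranger 6.1.2 and 24.3 to 163 CPM in the 8 libraries of 7.0.1, and these ranges did not overlap. The log2 difference of Müller glia from neurons was accordingly 3.81 in the first set and 2.16 in the second. In the sums over all nuclei VIM was at 21.4 ± 6.60 CPM in the first set and 107 ± 82.0 CPM in the second, with Mature 4 at 299 CPM. Software version and RNA type cannot be told apart here. The sets also differed in depth, with overlapping medians of 1617 to 3368 and 2656 to 5519 UMIs per neuron nucleus. They differed in cell classes as well. Gated RGCs were 3.47% to 5.67% of nuclei in the first set and 0.221% to 1.74% in the second. Gated cones were 17.3% ± 8.05 and 8.99% ± 3.93 (SD). The parts of depth and cell classes were not tested.

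NES had no UMI in either glial class: 0 of 6742 Müller glia, which allows up to 0.0445% of nuclei with a UMI or 0.153 CPM, and 0 of 1322 astrocytes, which allows up to 0.227% with a UMI or 0.754 CPM. These limits do not cover nuclei that express the gene without a captured UMI. Among gated neurons it had 3 UMIs, all in ACs, and it was not tested. S100B was listed at 0 in all 15 retinas, as were the inhibitory neuron genes GAD2 and SLC32A1, which inhibitory ACs are known to use. Nothing was read from the 0 of S100B.

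Aquaporin 4, the water channel of glial end feet, was high in both glial classes and low in neurons. In Müller glia it stood at 340.1, 293, 338, 172 and 174 CPM in Infancy 1 to 5, at 204, 222, 199, 169 and 194 CPM in Mature 1 to 5, and at 236, 390.0, 239, 142 and 277 CPM in Senile 1 to 5. In astrocytes the corresponding values were 397, 345, 297, 170.0 and 83.3 CPM, then 325, 220.0, 138, 9.25 and 219 CPM, then 308, 509.9, 213, 182 and 189 CPM. The stages overlapped in both classes, and Mature 4 was the lowest astrocyte value. In neurons AQP4 was 3.82 ± 1.21 CPM (1.63 to 5.73), below every glial value.

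AQP4 was above neurons by 6.099 ± 0.20 on the log2 scale in Müller glia (adjusted p = 2.5e-25), a fold of 68.6 with a 95% interval from 52.1 to 90.3, and by 5.83 ± 0.21 in astrocytes (adjusted p = 2.3e-23). Müller glia differed from astrocytes by 0.27 ± 0.18 (adjusted p = 0.268), with an interval of the fold from 0.943 to 1.54. Without Mature 4 the difference was 0.03 (adjusted p = 0.863). Its direction depended on the libraries, at -0.30 in those of Cell Ranger 6.1.2 (adjusted p = 0.0782) and 0.77 in those of 7.0.1 (adjusted p = 0.0390), or 0.45 in the latter without Mature 4 (adjusted p = 0.0336). After thinning, 22.2% of Müller glia, 20.9% of astrocytes (22.4% without Mature 4) and 0.350% of neurons held an AQP4 UMI.

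GLUL, the glutamine synthetase that takes up ammonia and glutamate, was higher in Müller glia than in astrocytes of the same retina in 15 of 15 retinas. Its levels in Müller glia were 437, 421, 468, 182 and 257 CPM in Infancy 1 to 5, 429, 381, 167, 138 and 525 CPM in Mature 1 to 5, and 280.1, 347, 269, 127 and 123.4 CPM in Senile 1 to 5. Those in astrocytes were 149.8, 118, 87.4, 75.8 and 70.5 CPM, then 182, 286, 69.2, 18.5 and 177 CPM, then 79.0, 170.0, 56.8, 80.4 and 21.6 CPM. The class ranges overlapped, while the means over the retinas were 303 ± 136 CPM in Müller glia and 109 ± 71.5 CPM in astrocytes (SD, n = 15 each).

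The log2 difference of GLUL between Müller glia and astrocytes was 1.64 ± 0.20 (adjusted p = 1.3e-08), and the 2-sided exact sign-flip test over the 15 retinas gave p = 6.1e-05, the smallest it can give. Without Mature 4 the difference was 1.49 ± 0.19. Against neurons, at 9.73 ± 3.01 CPM, Müller glia were higher by 4.92 ± 0.19 (adjusted p = 4.2e-23) and astrocytes by 3.28 ± 0.22 (adjusted p = 1.6e-15), and neither glial range reached that of the neurons. In thinned nuclei, a GLUL UMI was found in 26.1% of Müller glia, 10.6% of astrocytes (11.3% without Mature 4) and 1.07% of neurons. In Müller glia GLUL was 395 ± 64.2 CPM in the libraries of Cell Ranger 6.1.2 and 224 ± 134 CPM in those of 7.0.1, and these overlapped through Mature 5.

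CA14, a membrane-bound carbonic anhydrase with its active site outside the cell, was also a Müller gene in these retinas, but its level split by library set. In Müller glia it was 60.5 to 135 CPM in the 7 libraries of Cell Ranger 6.1.2 (mean 97.2 ± 31.8) and 15.3 to 36.0 CPM in the 8 libraries of 7.0.1 (mean 24.3 ± 7.11), with no overlap. In astrocytes it was 16.7 ± 13.6 CPM, from 0 UMIs in Infancy 3 to 28 in Mature 4. Müller glia were higher than astrocytes by 1.66 ± 0.43 on the log2 scale (adjusted p = 0.00186) and in 12 of 15 retinas, and without Mature 4 by 1.88 ± 0.41. In the libraries of 7.0.1 alone the difference was 0.92 and was not called (adjusted p = 0.142), or 1.43 without Mature 4 (adjusted p = 0.0169).

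Against neurons, at 1.61 ± 1.29 CPM, CA14 was higher in Müller glia by 5.14 ± 0.31 (adjusted p = 2.1e-17) with no overlap, and in astrocytes by 3.48 ± 0.56 (adjusted p = 1.4e-06) with overlap. The difference of Müller glia from neurons was 6.62 in the libraries of Cell Ranger 6.1.2 and 3.95 in those of 7.0.1. The shares of thinned nuclei with a UMI were 5.31% of Müller glia, 1.22% of astrocytes (1.08% without Mature 4) and 0.206% of neurons.

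DKK3 was the member with the most UMIs and the one with a clear second site in neurons. In Müller glia it stood at 1397, 1325, 1157, 512 and 726 CPM in Infancy 1 to 5, at 1367, 1705, 809, 1079 and 914 CPM in Mature 1 to 5, and at 879, 1141, 1132, 783 and 832 CPM in Senile 1 to 5. Astrocytes held 355 ± 117 CPM (lowest 146, median 332, highest 616). The classes overlapped only in that the lowest Müller value, Infancy 4, lay below the highest astrocyte values, and within retinas Müller glia were higher in 15 of 15.

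The log2 difference of DKK3 between Müller glia and astrocytes was 1.62 ± 0.12 (adjusted p = 5.0e-14), or 1.57 ± 0.12 without Mature 4. Against all neurons, at 132 ± 54 CPM, it was 3.12 ± 0.12 in Müller glia (adjusted p = 2.2e-23) and 1.51 ± 0.12 in astrocytes (adjusted p = 1.4e-13). A DKK3 UMI was found in 62.0% of thinned Müller glia, 28.4% of astrocytes (28.1% without Mature 4) and 9.56% of neurons.

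Within the neurons DKK3 was far from even. ACs held 340.2 ± 147 CPM and RGCs 226 ± 70.8 CPM, followed by HCs at 128 ± 69.2, BCs at 69.7 ± 21.5, rods at 61.5 ± 52.1 and cones at 44.0 ± 22.4 CPM. ACs did not differ from astrocytes by more than the spread between retinas, with a mean log2 step of 0.12 ± 0.58 (SD) and astrocytes higher in 8 of 15. ACs exceeded RGCs by 0.56 ± 0.33 and RGCs exceeded HCs by 0.87 ± 0.59, both beyond 1 SD. Microglia held 97.5 ± 66.3 CPM from 65 UMIs in 13 retinas, a mean above those of BCs, rods and cones. Within retinas microglia were higher than BCs in 9 of 13, with a mean log2 step of -0.48 ± 2.45 (SD). The part of free RNA in these levels was not tested. After thinning, 25.7% of ACs and 19.7% of RGCs held a DKK3 UMI.

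The other 5 genes showed no neuron class that stood out in the same way. AQP4 was at 5.16 ± 2.52 CPM in ACs, the highest neuron class, 5.39 ± 1.04 below Müller glia on the log2(CPM + 1) scale. GLUL was highest among neurons in ACs (14.5 ± 3.96 CPM) and lowest in RGCs (5.32 ± 2.79 CPM), and microglia held 27.0 ± 19.2 CPM from at most 3 UMIs per retina. VIM was at 50.6 ± 47.2 CPM in BCs (40.7 without Mature 4) and 15.98 ± 24.8 CPM in RGCs (9.86 without Mature 4). In microglia it was at 63.8 ± 103 CPM (n = 13), or 41.5 CPM without Mature 4. The mean of microglia was above that of every neuron class, but within retinas microglia were higher than BCs in only 4 of 13.

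**Figure D2:**
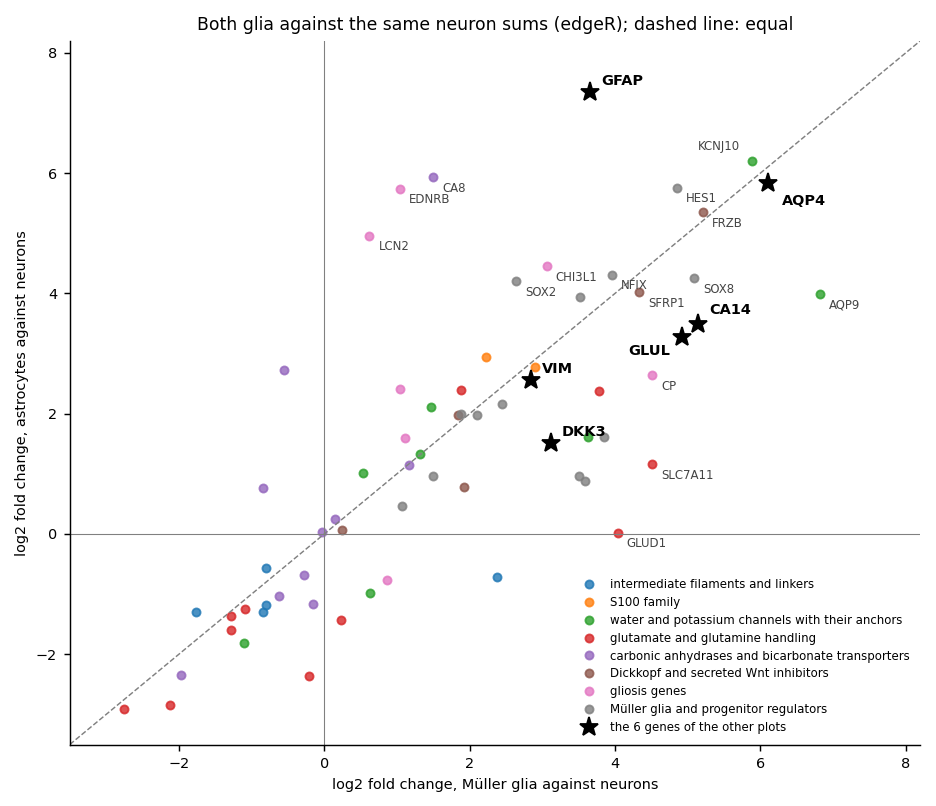
Log2 difference from neurons in astrocytes against that in Müller glia, from edgeR fits over 15 retinas, with stars for the 6 genes and dots for tested genes of the gene lists. GFAP lay at 7.34 in astrocytes and 3.66 in Müller glia, and AQP4 at 5.83 and 6.099.

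Genes that work beside the members were counted by lists of filaments, S100 proteins, channels, glutamate handling, carbonic anhydrases, Wnt inhibitors, gliosis genes and glial regulators. The counts are read against the 22.3% of all features that were higher and the 14.6% that were lower in Müller glia than in astrocytes, with a median log2 difference of 0.08 over all features. The values below are log2 differences ± SE of Müller glia from astrocytes unless the neurons are named, and every gene given as higher or lower had an adjusted p under 0.05.

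Of 14 intermediate filament and linker genes, 5 were tested, 2 were higher and 0 lower in Müller glia, with a median of 0.38. Synemin (SYNM), which binds vimentin filaments, was at 114 ± 27.7 CPM in Müller glia and 14.8 ± 10.8 CPM in astrocytes with no overlap, a log2 difference of 3.09 ± 0.20, and astrocytes differed from neurons by -0.71. The cytolinker DST was 0.46 higher. In the S100 family 2 of 8 genes were tested: S100A6 was lower in Müller glia, at -0.73 ± 0.23, and S100A13 was above neurons by 2.90 in Müller glia and 2.77 in astrocytes.

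Of 16 genes for water and potassium channels and their anchors, 8 were tested, 4 were higher and 2 lower, with a median of 0.35. AQP9, an aquaporin that also passes glycerol, was at 277 ± 66.0 CPM in Müller glia, 40.7 ± 27.0 CPM in astrocytes and 2.59 ± 1.00 CPM in neurons, and none of these ranges overlapped. Utrophin (UTRN) and dystrophin (DMD), which anchor channels at the cell membrane, were higher by 2.01 ± 0.15 and 1.61 ± 0.14. KCNJ10, the main glial inward rectifier, was above neurons in both classes, by 5.88 and 6.21.

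Of 12 genes for glutamate and glutamine handling, 11 were tested, 6 were higher and 1 lower in Müller glia than in astrocytes, with a median of 0.71. Glutamate dehydrogenase (GLUD1) was at 654 ± 119 CPM in Müller glia, 41.1 ± 16.6 CPM in astrocytes and 42.2 ± 5.71 CPM in neurons, a log2 difference of 4.02 ± 0.11 between the glial classes. The cystine and glutamate exchanger SLC7A11 was higher by 3.36 ± 0.30, the glutamate transporter SLC1A2 by 2.15 ± 0.32 and the glutamine transporter SLC38A3 by 1.66 ± 0.22. The glial glutamate transporter SLC1A3 was above neurons by 3.78 in Müller glia and 2.38 in astrocytes. The mitochondrial aminotransferase GOT2 was lower in both than in neurons, with log2 differences of -2.75 and -2.92.

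Of 16 carbonic anhydrases and bicarbonate transporters, 10 were tested, 2 were higher and 3 lower, with a median of -0.02. In contrast to CA14, CA8, a relative of the carbonic anhydrases that lacks their activity, was at 91.3 ± 49.6 CPM in astrocytes and 2.80 ± 1.66 CPM in Müller glia, a log2 difference of -4.43 ± 0.31 with no overlap. The sodium bicarbonate cotransporter SLC4A4 was lower in Müller glia, at -3.28 ± 0.19, whereas SLC4A7 was higher by 1.01 ± 0.13. Of 12 Dickkopf and Wnt inhibitor genes, 5 were tested and KREMEN1, a Dickkopf receptor, was the 1 gene that was higher (1.15 ± 0.19), while all 5 were above neurons in Müller glia (31.5% of all features were), among them the secreted inhibitors FRZB by 5.20 and SFRP1 by 4.33.

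Of 21 gliosis genes, 7 were tested, 2 were higher and 4 lower, with a median of -1.36. The endothelin receptor EDNRB was lower in Müller glia, at -4.70 ± 0.33, as was lipocalin 2 (LCN2), at -4.34 ± 0.68, while ceruloplasmin (CP) was higher by 1.87 ± 0.33 and the cytokine receptor LIFR by 1.63 ± 0.20. Of 19 glial and progenitor regulators, 13 were tested, 5 were higher and 3 lower, with a median of 0.28, and all 13 were above neurons in Müller glia, where 31.5% of all features were higher. The transcriptional repressor HES5 was higher than in astrocytes by 2.72 ± 0.39, and the inhibitors of DNA binding ID1 and ID3 by 2.54 ± 0.35 and 2.24 ± 0.33. The transcription factor SOX2 was lower, at -1.57 ± 0.21.

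Without Mature 4, the 24 list genes with the widest called differences between the glial classes (at most 4 of a list) kept their direction and 23 of them their call, and their values moved by at most 0.76. The exception was KCNJ2, an inward rectifier, at 0.71 with that retina and 0.65 without it (adjusted p = 0.081). The channels then counted 3 higher and 3 lower, the regulators 5 higher and 4 lower, and the other 6 lists as before, while the median of the gliosis genes was -0.70 and that of the filament genes 0.24.

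The second question of the design was whether the levels differed with age. No member passed the adjusted p of 0.05 between any 2 stages, in Müller glia, in astrocytes or in whole retinas, in edgeR fits with the software version as a covariate. The share of all features called was 0.861% for mature against infant, 1.13% for senile against infant and 0.0281% for senile against mature Müller glia. It was 0.164%, 0.356% and 0% in astrocytes and 0.99%, 1.63% and 0% in whole retinas. At an unadjusted p under 0.05 edgeR placed 0 members in each of the 3 Müller comparisons, 0, 0 and 1 in astrocytes, and 1 in each of the whole-retina comparisons, and DESeq2 gave the same counts and also 0 calls. Of all features, edgeR placed 10.1%, 8.52% and 8.59% at that p in Müller glia, 8.93%, 6.74% and 4.63% in astrocytes and 12.3%, 11.2% and 9.69% in whole retinas, so the members' counts were near this background. Without Mature 4 edgeR also called 0. At that unadjusted p it then placed 0, 1 and 2 of 6 members in Müller glia and 1, 1 and 2 of 5 in astrocytes. The share of all features at that p is not given for these fits, so nothing is read from these counts.

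**Figure D3:**
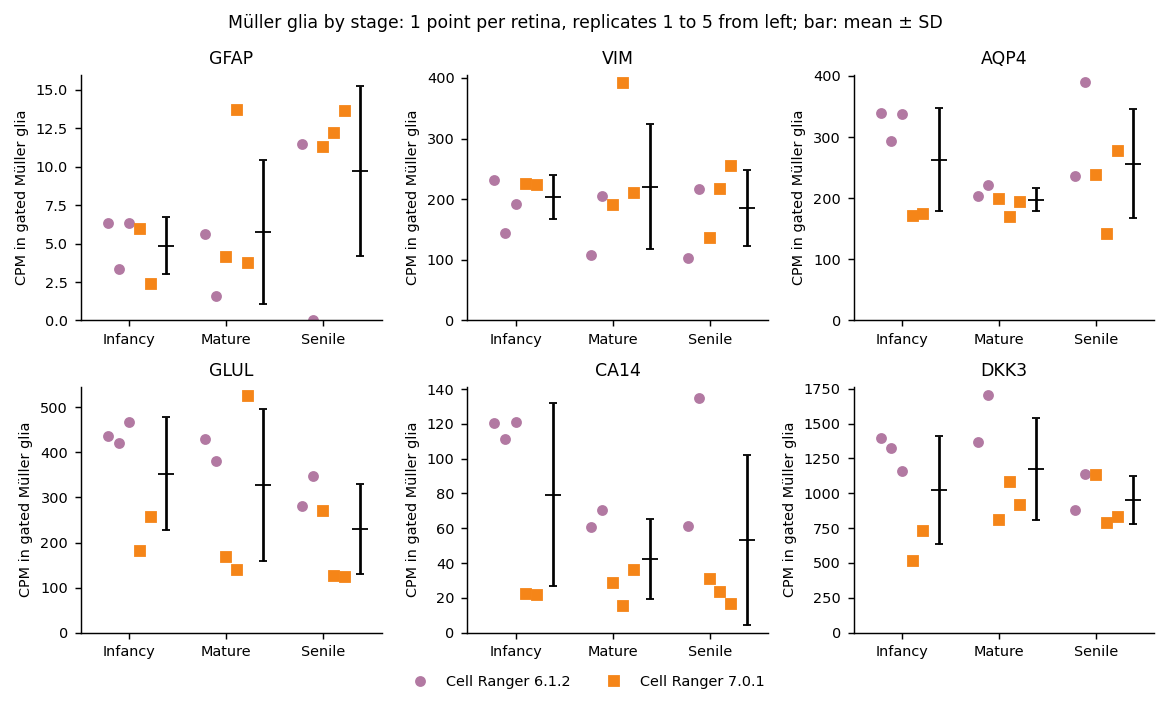
CPM of 6 genes in gated Müller glia, with 1 point per retina, circles for Cell Ranger 6.1.2, squares for 7.0.1 and bars for the mean ± SD of a stage (n = 5). The stages overlapped for every gene, and for CA14 every circle lay above every square.

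With all 15 retinas, GFAP was the member with the widest differences of senile retinas from both younger stages. In Müller glia 4 of 5 senile retinas were at 11.3 to 13.7 CPM, above every infant retina, and Senile 2 was at 0. The senile minus infant log2 difference was 1.04 ± 0.52 (adjusted p = 0.639), or 0.66 without Infancy 5, and the senile minus mature difference was 0.76 ± 0.47 (adjusted p = 0.689) with Mature 4 and 1.49 without it (adjusted p = 0.342). In astrocytes the mean was 95.5 ± 43.6 CPM in infant, 72.3 ± 51.8 in mature (89.6 ± 40.0 without Mature 4) and 212 ± 157 in senile retinas, and the senile minus mature difference was 1.40 ± 0.59 (adjusted p = 0.969) with all retinas, 0.98 without Mature 4 and 2.14 without Mature 3. Without Mature 4, GLUL was farther from 0 there, at -1.12 (adjusted p = 0.578).

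In the sums over all nuclei of a retina GFAP was at 1.23, 1.42, 2.14, 2.86 and 1.05 CPM in Infancy 1 to 5, at 0.909, 1.66, 2.44, 1.60 and 0.954 CPM in Mature 1 to 5, and at 2.38, 2.68, 4.59, 4.35 and 4.00 CPM in Senile 1 to 5. Senile 1 lay just below the highest mature retina, and Senile 1 and 2 below the highest infant retina. The senile minus mature log2 difference was 1.15 ± 0.32, with an unadjusted p of 0.00301 and an adjusted p of 0.347. DESeq2 gave 1.14 ± 0.33 and an adjusted p of 0.0527, just above the threshold. The senile minus infant difference was 0.85 ± 0.33 (adjusted p = 0.337). The gates held astrocytes as 1.22% ± 0.318 of infant, 1.18% ± 0.580 of mature (0.97% ± 0.384 without Mature 4) and 0.812% ± 0.268 of senile nuclei. The mean share of gated astrocytes was thus lowest in the senile retinas, where mean GFAP was highest. In such sums, a change in the number of cells of a type and a change in RNA per cell cannot be told apart.

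GLUL came next to GFAP in the size of the senile differences in Müller glia, and these also missed the threshold, but passed it when no filter on low counts was applied (-0.69 and -0.74, adjusted p = 0.0143 and 0.00844). Its mean was 353 ± 126 CPM in infant, 328 ± 169 in mature and 229 ± 99.7 in senile Müller glia. The log2 difference was -0.57 ± 0.32 for senile minus infant (adjusted p = 0.706) and -0.64 ± 0.31 for senile minus mature (adjusted p = 0.586), the latter -0.15 without Mature 5, the highest of its group. In whole retinas of Cell Ranger 6.1.2 alone, a choice made after seeing the data, senile minus infant was -1.22 for GLUL (adjusted p = 0.00608) and -1.30 for CA14 (adjusted p = 0.0352), on 2 senile and 3 infant retinas, while in those of 7.0.1 the values were 0.17 and 1.36, and neither was called.

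VIM, AQP4, CA14 and DKK3 gave stage differences between -0.35 and 0.31 in Müller glia, and the lowest adjusted p was 0.626. These values moved with single retinas: CA14 in senile minus infant was -0.59 without Senile 2 and -0.15 without Senile 1, DKK3 in mature minus infant was 0.16 without Infancy 4, and VIM in senile minus mature was -0.01 without Mature 4. None was called in any fit with 1 retina left out. AQP4 in senile against infant Müller glia was the closest to 0, with a fold of 0.998 and a 95% interval from 0.764 to 1.30. In whole retinas the mature minus infant difference of AQP4 was -0.48 ± 0.21 (unadjusted p = 0.0331, adjusted p = 0.366), at 14.2 to 17.9 against 15.2 to 28.4 CPM. That difference was -0.82 in the libraries of 6.1.2 and 0.09 in those of 7.0.1.

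**Figure D4:**
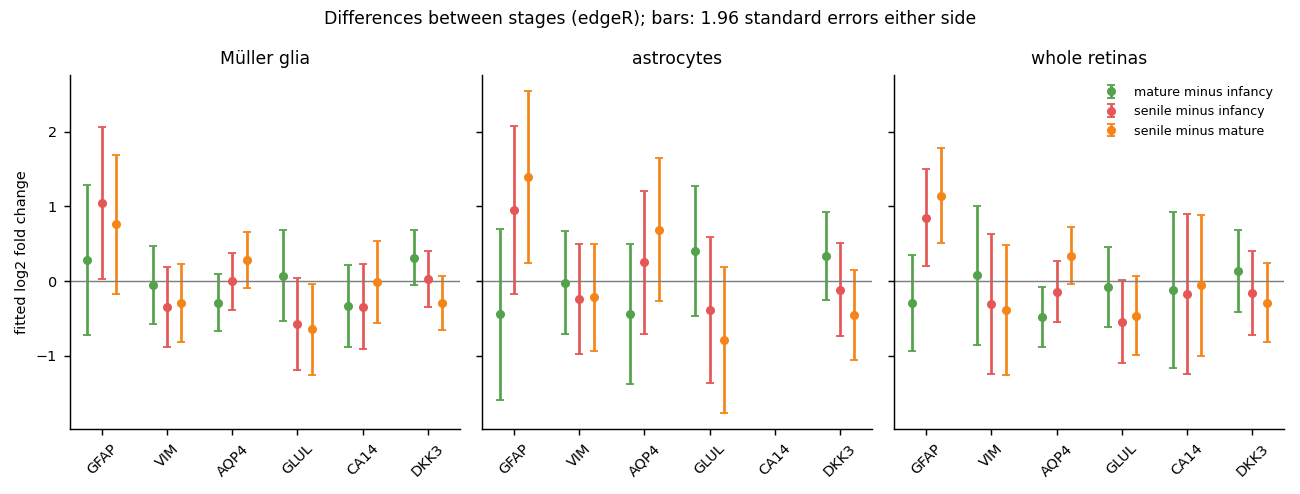
Fitted log2 difference between stages with its approximate 95% interval for each gene in Müller glia, astrocytes and whole retinas. CA14 did not pass the filter on low counts in astrocytes, and the value farthest from 0 was 1.40 for GFAP in senile minus mature astrocytes.

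Other cell types in the gates were followed by their markers. The 4 endothelial markers summed to medians of 416, 435 and 403 CPM in infant, mature and senile Müller glia. In astrocytes they summed to 75.7, 29.0 and 42.5 CPM. The summed BC markers had medians of 355, 322 and 297 CPM in Müller glia and 210, 213 and 276 CPM in astrocytes. The stages overlapped for both sets in both gates. The summed level of the 6 astrocyte markers in gated Müller glia was 201 to 487 CPM in infant, 216 to 591 in mature and 185 to 263 in senile retinas, with medians of 421, 364 and 224 CPM. That of the 6 Müller markers in gated astrocytes was 285 to 467, 209 to 538 and 255 to 525 CPM, with medians of 335, 468 and 455 CPM. The summed cone markers had medians of 113, 141 and 208 CPM in infant, mature and senile Müller glia and of 103, 142 and 230.4 CPM in astrocytes, with 5 of the 6 markers above 0 and GNGT2 at 0. Their ranges were 65.1 to 192, 70.8 to 219 and 97.8 to 362 CPM in Müller glia, and 52.4 to 189, 73.3 to 210.0 and 156 to 422 CPM in astrocytes, so the stages overlapped. The part of these markers in the stage values was not tested.

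Across all 129 sums per retina and class, each member had features that followed it. Pearson's r of log2(CPM + 1) is given as a description, since the sums of a retina share its library and depth. GFAP was followed by CMTM5 (r = 0.91), LGI4 (0.90) and the adhesion molecule VCAM1 (0.88), and AQP4 by the nuclear receptor NR2E1 (0.92), the collagen gene COL5A1 (0.92) and the long noncoding LINC-RPL36A-4 (0.91). GLUL was followed by LINC-RHBG-2 (0.81), LINC-RPL36A-4 (0.81) and the glial adhesion gene HEPACAM (0.80), and CA14 by LINC-JUN-3 (0.86), COL5A1 (0.84) and the junction gene CGNL1 (0.84).

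For VIM the closest were COL9A2 (0.78), OPTC (0.78) and CPAMD8 (0.75), and for DKK3 the cadherin CDH20 (0.77), the phosphatase PTPRS (0.76) and the receptor CNTFR (0.76). Among the members themselves AQP4 and CA14 were the closest pair (0.82), followed by GFAP with AQP4 and AQP4 with GLUL (0.79 each), and VIM and DKK3 were at 0.22.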

How the data were processed

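Nuclei of 15 whole retinas were profiled with 10x Genomics 3′ libraries, which the labels give as v2 and the study's methods as v3.1. The authors deposited, per library, raw UMI counts per feature and barcode, aligned to the TS_3.0 tree shrew genome. The software version is 6.1.2 (7 libraries) or 7.0.1 (8) in the file headers, 5.0.1 (7) or 7.0.1 (8) in the submitters' processing notes. Whether reads in introns were counted, and strand, are not given in the sources used here, so an antisense feature cannot be told apart from its partner. Counts are UMIs, and limits of a count of 0 (3 counts) cover counting error only.

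The study's own limits were applied to the barcodes (over 200 and below 6000 genes, mitochondrial UMIs below 5%). A nucleus was put in a class if it held enough of that class's gate markers, each with 1000 or more UMIs in the series (3 of 6 for Müller glia: RLBP1, TF, WIF1, CHRDL1, CRB1, KDR; 3 of 6 for astrocytes, among them PAX2, SLC14A1, NTRK2, SPARCL1 and SEMA3C; 2 or 3 of 3 to 6 in other classes), and if their share of its markers was at least 2 times that of every other class. These cut-offs were set after seeing the data. No doublet caller was run, and nuclei with markers of several classes were left out by this rule. Libraries shared at most 30 barcodes (0.422%). Shares of nuclei with a UMI were compared after thinning each nucleus to 1000 UMIs, leaving out shallower nuclei.

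UMIs were summed per retina and class (20 or more nuclei). Summed UMIs per retina were 207711 to 2480039 in Müller glia, 47065 to 865298 in astrocytes and 5745841 to 21002914 in neurons, so values are least precise in astrocytes. Classes were compared in edgeR 4.0.16 (R 4.3.3, limma 3.58.1) with TMM scaling, filterByExpr and the quasi-likelihood test, the retina as a block and gate markers left out. Stages were compared in the same way with stage and software version, all 15 retinas sharing 1 estimate of the spread. P-values were adjusted by Benjamini-Hochberg over all features tested (threshold 0.05). Those of the stage comparisons rest on the spread between animals, each with 1 library. Those of the class comparisons rest on how far class differences varied from retina to retina, since the retina was a block. The members also had a 2-sided exact sign-flip test within retinas. Alternatives were DESeq2 1.42.0, no filter, a stricter gate with 1 more marker, other covariates, each retina left out and each software version alone. Library totals in place of TMM, the version-wise stage fits and fits of 7.0.1 without Mature 4 were added after seeing the data. Other steps used Python 3.11.15, numpy 2.4.6, pandas 2.3.3, scipy 1.17.1 and matplotlib 3.10.9.

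The members and gene lists were chosen with earlier results of these data known. Named were the 9 members; of each list, at most 4 genes with the largest difference among those past the threshold in a comparison of classes, and those past it between stages of Müller glia (there were none); and the 3 features most like each member. On simulated data the senile minus infancy fit found 42.2% of genes changed 2-fold and 89.0% of those changed 4-fold in Müller glia (10682 features), 21.4% and 70.1% in astrocytes (3651), and 20.4% and 60.8% in whole retinas (28977).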

Additional observations from a re-analysis of the deposited data

Results flagged for a closer look

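A value far from the other 4 retinas of its stage was looked for in 77 groups, with Dixon's limit of 0.71, and chance alone flags about 1 in 20 such groups. GFAP in Senile 2 was set apart in both glial classes, as the lowest of its stage in Müller glia (0 CPM from 0 UMIs) and the highest in astrocytes (489 CPM from 23 UMIs in 40 nuclei). VIM was set apart in the neurons of Infancy 4 (64.6 CPM) and in Mature 4, both in neurons (163 CPM) and over all nuclei (299 CPM). CA14 in Mature 4 was the highest of its stage in neurons (4.26 CPM) and over all nuclei (11.4 CPM), and over all nuclei it was also set apart in Senile 3 (10.9 CPM). The NES values so marked, 0.0515 CPM in the neurons of Infancy 4 and 0.0767 CPM over all nuclei of Infancy 2, rest on at most 2 UMIs each. What sets these libraries apart was not tested.

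The annotation also lists features named after the members, which the comparisons did not use. DKK3-AS-2 had 20682 UMIs in the series and stood at 186 ± 110 CPM in Müller glia, 65.8 CPM in astrocytes and 15.9 CPM in neurons, the order seen for DKK3. LINC-DKK3-2 had 1041 UMIs, at 29.0 CPM in Müller glia, 1.83 CPM in astrocytes and 0.162 CPM in neurons, and LINC-DKK3-1 had 239 UMIs, at 7.07, 0 and 0.0285 CPM. LINC-GLUL-1 had 4852 UMIs, at 78.6 ± 27.1 CPM in Müller glia, 29.3 CPM in astrocytes and 5.19 CPM in neurons, while GLUL-AS-1 had 451 UMIs, 142 of them in Infancy 4, and GLUL-AS-2 141. LINC-AQP4-3, with 4154 UMIs, was in contrast at 6.23 CPM in Müller glia, 6.78 CPM in astrocytes and 9.61 CPM in neurons, and AQP4-AS-1 had 914 UMIs.

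GFAP-AS-1 had 131 UMIs, at 1.85 CPM in Müller glia and 4.32 CPM in astrocytes, and the numbered copy VIMli2 had 270. LINC-S100B-1 had 795 UMIs although S100B itself was listed at 0. CA2-AS-1, at 392 UMIs, and LINC-CA2-5, at 435 UMIs, were present although CA2 was not listed under its name, but 323 UMIs of LINC-CA2-5 lay in Mature 4 alone. None of these differences was tested, and since the counting is not stated to use strand, antisense features may share reads with their partners.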

How the results depend on the processing

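The members called were 4 of 6 between Müller glia and astrocytes, 6 of 6 in each comparison with neurons, and 0 in each of the 9 stage comparisons. Of 120 alternative counts, 117 stayed within 1.5 times of these. For the stage comparisons this means only that again 0 members were called. The counts also do not show whether the same members were called. Without a filter on low counts, 1 member was called in senile minus infancy Müller glia (GLUL, -0.69) and 1 in senile minus mature (GLUL, -0.74), where 1.05% and 0.452% of all features were called. With Cell Ranger 6.1.2 alone, 2 were called in senile minus infancy whole retinas (CA14 and GLUL, on 3 infant and 2 senile libraries), where 2.21% of all features were called. The cause was not tested. AQP4 between the glial classes was called without the filter (0.43) and in 7.0.1 alone (0.77), and CA14 was lost in 7.0.1 alone (0.92). Each retina left out in turn, GFAP in whole senile minus mature retinas ranged from 0.99 to 1.33.

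Counts over all features moved more. For the 3 stage comparisons (mature minus infancy, senile minus infancy, senile minus mature), Müller glia gave 92, 121 and 3 calls, against 164, 202 and 40 in DESeq2, 460, 475 and 205 without the filter, 15, 51 and 0 in 7.0.1 alone, 76 and 1 for the latter 2 in 6.1.2 alone, 0 for the last with stage alone, and, each retina omitted in turn, 49 (Infancy 4 omitted) to 107, 88 to 136 and 1 (Mature 1, Mature 5 or Senile 5) to 6 (Mature 4, with 5 for Infancy 4 and Senile 1). Astrocytes gave 6, 13 and 0, against 42 and 22 for the first 2 in DESeq2, 294, 122 and 51 without the filter, 15 for the first in 6.1.2 alone, 0 for each in 7.0.1 alone, 7 for the second with stage alone, and 1 to 28 and 2 to 32 with each retina omitted in turn. The first was 28 with Mature 3 and 16 with Mature 4 omitted and 1 or 2 for Infancy 4, Infancy 5, Mature 1 and Mature 5, and the second was 32 for Mature 4 and 2 to 7 for Infancy 3 to 5 and each senile retina. Whole retinas gave 287, 471 and 0, against 740, 844 and 202 in DESeq2, 133 and 283 with stage alone, 25 and 142 in 7.0.1 alone, 187 (Infancy 4 omitted, with 190 for Mature 1) to 347 and 353 to 536 over single omissions, and for the last 30 without the filter and 5 in 6.1.2 alone. The class comparisons gave 4123, 7814 and 6693, against 6595, 19659 and 14141 without the filter, and 2596 for Müller glia against astrocytes and 4422 for astrocytes against neurons in 6.1.2 alone. In whole retinas 82.9% of mature minus infancy and 84.9% of senile minus infancy calls were higher in edgeR, against 66.2% and 72.3% in DESeq2.

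The labels' replicate numbers did not pair retinas: of 15 same-numbered pairs in Müller glia, 1 had a correlation of deviations over 0.1 (-0.35 to 0.11). A replicate block left 0 members called in each stage comparison and gave 52, 76 and 1 calls in Müller glia, 0 and 1 in place of 6 and 13 in astrocytes, and in whole retinas 151 in place of 287, and 260 higher and 19 lower in place of the 471. GFAP in Müller glia, CA14 in astrocytes and NES are limited by few UMIs.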

Other observations

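Among the 118 genes of the 8 lists, of which 115 were listed in the matrices, TNC, which encodes the matrix protein tenascin C and is listed with the gliosis genes, was the 1 gene that passed the test in a stage comparison, and it was chosen for mention after its values were seen. It was 1 of 89 genes tested in senile minus infancy whole retinas, or 1.12%, where 1.63% of all features were called. Over all nuclei it stood at 1.81, 1.38, 1.75, 2.13 and 1.15 CPM in Infancy 1 to 5, at 0.471, 0.542, 1.45, 1.06 and 1.03 CPM in Mature 1 to 5, and at 0.366, 0.149, 0.813, 0.813 and 0.497 CPM in Senile 1 to 5. Every senile retina lay below every infant retina, and the senile minus infancy log2 difference was -1.97 ± 0.37 (edgeR, adjusted p = 0.00752). The share of all features without overlap between these stages is not given, so nothing is read from the lack of overlap. In Müller glia TNC was at 0 to 1.92 CPM and was not tested, and in astrocytes its highest value was 5.83 CPM, in Infancy 3. Gated BCs were 19.8% ± 3.24 of infant and 11.3% ± 4.81 of senile nuclei, and gated cones 9.69% ± 2.44 and 16.2% ± 6.80 (SD). Whether the TNC difference lay in cell numbers or in RNA per cell was not tested.

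The gated classes also differed in how much of each member's RNA they held. Of the UMIs over all nuclei, gated Müller glia held 48.3% for AQP4, 40.9% for GLUL, 36.0% for CA14, 17.2% for DKK3 and 13.2% for VIM, while they were 3.09% to 8.65% of the nuclei of a retina. Gated neurons held 21.5% of the UMIs of DKK3, 22.2% of VIM, 14.1% of GLUL and 7.49% of AQP4. The remainder lay in gated astrocytes and microglia and in ungated nuclei, since 56938 of 119765 nuclei were gated. For DKK3 and VIM, gated astrocytes held only 1.35% and 2.88%, and gated microglia 0.0604% and 0.168%. Most UMIs of these genes therefore lay in nuclei that the marker rule left ungated.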
